A study of Arabidopsis thaliana with 8 samples.

Results

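Nitrate reductases and transporters of the NRT1/PTR family (NPF) were followed in rosette leaves of Arabidopsis thaliana through a list of 10 loci, found by locus identifier among 27634 rows of the deposited tables. The list holds both nitrate reductase genes, NIA1 and NIA2, and the 8 transporter genes NPF6.3, NPF6.4, NPF6.2, NPF2.13, NPF7.2, NPF7.3, NPF5.1 and NPF5.16. All 10 passed the filter on low counts. The members were chosen by their identity with the measured difference between the genotypes, WT against DLK2-OE1, already known, so the levels, fold changes and counts of calls given for them describe these libraries and carry no test. The wild type (WT) and DLK2-OE1, whose name reads as DLK2 overexpression, had 4 libraries each, and no genotype or treatment beyond these labels was given. Plants were 24 days old, after 11 days on plates and 13 on soil. All DLK2-OE1 libraries came from a single line, and the labels name neither its promoter nor whether a replicate was 1 plant or a pool, so a p-value here reflects library-to-library spread alone, and that spread may be technical.

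Plants take up nitrate, move it through xylem and phloem and either store it in vacuoles or reduce it. Nitrate reductase in the cytosol makes nitrite, nitrite reductase in the plastid makes ammonium, and glutamine synthetase with glutamate synthase brings ammonium into amino acids. Nitrate reductase is under the control of nitrate, light, the clock and sugars, and leaves carry much of the reduction. NPF proteins are proton-coupled carriers, many of them for nitrate and others for peptides, glucosinolates or hormones. The overexpressed gene DLK2 encodes an α/β hydrolase related to the strigolactone receptor D14 and to KAI2.

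The members' sequences were compared first, since close copies can share reads. In the RefSeq TAIR10.1 annotation the coding sequences of NIA1 and NIA2 were 72.9% identical over 2724 aligned bases, and those of NPF7.2 and NPF7.3 68% over 1756. The first listed transcript of each of the 10 members shared 0 windows of 50 bases with an annotated transcript of any other gene. NPF6.2 has 3 annotated transcripts, and its others were not searched. NPF5.16 had the closest relative examined, its chromosome neighbour AT1G22570, at 82.9% over 1563 bases. The stretches below are 60 coding bases around the longest identical run of each pair, 20 bases for the nitrate reductases and 32 for the neighbours. Capitals mark the 9 bases that differ within each pair.
NIA1 (chr1:29236929-29236988, minus strand): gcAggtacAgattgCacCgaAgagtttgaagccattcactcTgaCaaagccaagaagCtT
NIA2 (chr1:14160660-14160719, plus strand): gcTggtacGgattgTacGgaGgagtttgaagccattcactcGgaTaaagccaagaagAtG
NPF5.16 (chr1:7967766-7967825, minus strand): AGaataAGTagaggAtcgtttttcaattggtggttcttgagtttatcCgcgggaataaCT
AT1G22570 (chr1:7977791-7977850, minus strand): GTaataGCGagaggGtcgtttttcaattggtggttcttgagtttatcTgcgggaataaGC

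Promoters are shown for the 4 transporter genes that lay lower in every DLK2-OE1 library than in any WT library, as the 250 bases before the annotated start in TAIR10.1. Capitals mark matches to 5 motifs searched on both strands.
NPF2.13 (chr1:26315537-26315786, plus strand): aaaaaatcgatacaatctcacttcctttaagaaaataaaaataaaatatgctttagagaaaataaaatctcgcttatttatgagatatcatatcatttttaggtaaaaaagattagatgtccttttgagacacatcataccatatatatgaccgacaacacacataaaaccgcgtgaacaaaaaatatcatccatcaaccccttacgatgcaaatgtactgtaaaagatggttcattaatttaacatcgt
NPF5.1 (chr2:16896657-16896906, plus strand): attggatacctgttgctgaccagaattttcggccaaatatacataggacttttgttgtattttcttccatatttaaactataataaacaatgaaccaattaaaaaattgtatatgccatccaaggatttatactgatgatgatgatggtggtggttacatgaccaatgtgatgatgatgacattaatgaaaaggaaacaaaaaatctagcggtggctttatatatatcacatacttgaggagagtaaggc
NPF6.4 (chr3:7629206-7629455, minus strand): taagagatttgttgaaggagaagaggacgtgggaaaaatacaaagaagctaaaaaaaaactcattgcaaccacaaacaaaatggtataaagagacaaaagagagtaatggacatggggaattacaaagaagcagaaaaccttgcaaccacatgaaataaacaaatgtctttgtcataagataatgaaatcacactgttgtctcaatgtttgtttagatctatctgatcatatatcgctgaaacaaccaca
NPF5.16 (chr1:7968693-7968942, minus strand): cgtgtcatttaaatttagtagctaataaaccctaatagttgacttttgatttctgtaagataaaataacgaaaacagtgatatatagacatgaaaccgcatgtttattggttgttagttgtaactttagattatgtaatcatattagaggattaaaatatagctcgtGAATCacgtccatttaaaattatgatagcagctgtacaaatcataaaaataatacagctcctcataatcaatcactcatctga
These 4 windows held 1 match, GAATC in NPF5.16 from 83 to 79 bases before the start. GAATC, bound by HRS1 and HHO repressors, was found in 2 of 10 member promoters, NIA1 and NPF5.16, and in 38.8% of 27443 promoters of protein-coding genes. TGACG, bound by TGA factors, was found in 1 of 10, NPF7.2, and in 18.6% of all. The G-box CACGTG (6.49% of all), the evening element AAAATATCT (2.36%) and the I-box GATAAG (12.3%) were in 0 of 10. The 3 matches in member promoters did not overlap, and the shares describe letters only.

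Library totals ran from 18097159 to 22139801 counts. DLK2 itself, the check on the labels, stood at 73.1 ± 10.06 CPM, TMM-normalized counts relative to library size, in the WT libraries and at 138 ± 13.2 CPM in those of DLK2-OE1. Here and below ± is the SD over the 4 libraries of a genotype. It rose by 0.92 on the log2 scale (SE 0.12). The quasi-likelihood test of edgeR, adjusted after Benjamini and Hochberg over 18155 genes, gave it an adjusted p of 0.0178. DLK2-OE1 replicates 1 and 2 stood apart from the other libraries on the first principal component, at 61.5 and 87.4 against 11.2 and -8.16 for replicates 3 and 4 and -47.5 to -27.7 for WT. Summed over 10 xylem markers the level was 24.5 to 65.9 CPM in WT. In DLK2-OE1 replicates 1 to 4 it was 162, 287, 96.5 and 69.7 CPM. Of 9 tested markers 4 rose by edgeR (7 by DESeq2, 0 by limma-voom), where 384 of all tested genes did (1567 by DESeq2, 108 by limma-voom). All 9 had a positive log2 fold change and an unadjusted edgeR p under 0.05. Of all 18155 tested genes 4779 had such a p, in either direction. Leaf mesophyll markers were abundant in every library, with summed levels of 22500 to 33284 CPM in WT and 14326 to 28864 CPM in DLK2-OE1. The edgeR test called 0 of the 5 (1 lower at an unadjusted p under 0.05, 0 by DESeq2 and limma-voom). All 5 had a negative log2 fold change, with a median of -0.47. Shoot apex and flower markers summed to 11.0 to 38.8 CPM in WT and 12.1 to 55.2 CPM in DLK2-OE1. Of 4 tested, 2 were higher and 1 lower by edgeR (2 higher and 2 lower by DESeq2, 0 by limma-voom). Root markers reached at most 0.701 CPM in sum over 8 genes, and EXP7, EXPA18 and RHD6 were at 0 counts throughout.

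Compared per transcript length, in fragments per kilobase and library size (FPKM) as deposited, NIA2 was by far the most abundant member in WT leaves at 252 ± 24.2 FPKM. NPF2.13, at 60.3 ± 5.88 FPKM, came next, and its range met neither neighbour. NPF6.3, NPF6.2, NPF5.1, NIA1 and NPF6.4 followed from 39.4 to 19.4 FPKM, and the WT range of each of these 5 overlapped that of its neighbour among them. NPF5.16 lay apart below at 4.597 ± 0.533 FPKM. The lowest levels belonged to the xylem carriers NPF7.3, at 2.09 ± 0.545 FPKM, and NPF7.2, at 0.783 ± 1.28 FPKM, whose ranges overlapped.

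**Figure D1:**
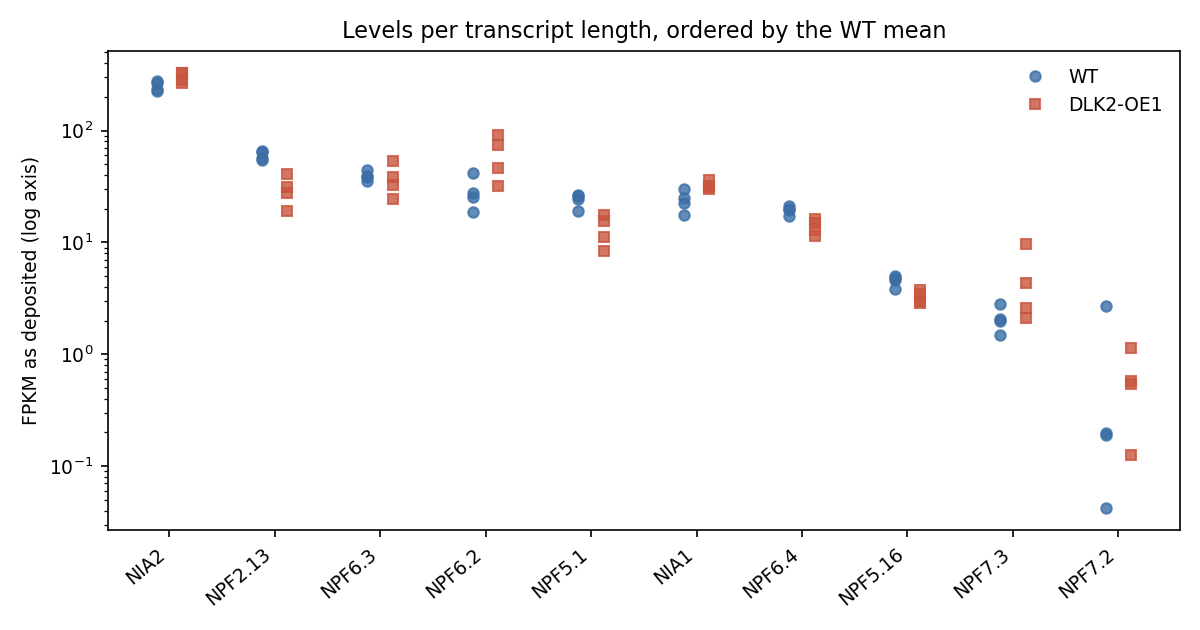
FPKM (log axis) of the 10 genes in each of the 4 WT libraries (circles) and 4 DLK2-OE1 libraries (squares), ordered by the WT mean. FPKM is shown as deposited, without TMM scaling. Its median log2 ratio to CPM, against WT replicate 1, was 0.21, 0.36, 0.075 and 0.026 in DLK2-OE1 replicates 1 to 4. NIA2 stands highest at a WT mean of 252 FPKM, and NPF7.2 and NPF7.3 lowest.

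Nitrate reductase transcripts overlapped between the genotypes. NIA2 (AT1G37130, chromosome 1, 14158452 to 14161938), which provides most of the enzyme in leaves, had 894, 777, 782 and 872 CPM in WT replicates 1 to 4 and 825, 696, 1048 and 1066 CPM in DLK2-OE1 replicates 1 to 4. DLK2-OE1 thus held both the lowest and the 2 highest values, and the groups overlapped, with a log2 fold change of 0.13 (SE 0.17). That value was 0.04 to 0.24 with single libraries omitted (lowest without DLK2-OE1 replicate 4, highest without its replicate 2), and 0.36 (SE 0.12) without DLK2-OE1 replicates 1 and 2. NIA1 (AT1G77760, chromosome 1, 29235721 to 29239484), the minor form, had 57.1, 82.8, 71.9 and 91.5 CPM in WT and 87.7, 80.6, 92.5 and 115 CPM in DLK2-OE1. WT replicate 1 was lowest and DLK2-OE1 replicate 4 highest, while the others overlapped, with a log2 fold change of 0.31 (SE 0.16). It was 0.19 when either WT replicate 1 or DLK2-OE1 replicate 4 was left out, and 0.46 (SE 0.18) with DLK2-OE1 replicates 1 and 2 omitted. Per transcript length NIA2 exceeded NIA1 by 15.2, 9.09, 10.5 and 9.24 times in the WT libraries and by 9.12, 8.37, 11.0 and 9.01 times in the DLK2-OE1 libraries. NIA1 made up 8.63 ± 1.72% of the summed FPKM of both genes in WT and 9.73 ± 0.983% in DLK2-OE1, and WT replicate 1 held the lowest share, 6.19%.

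**Figure D2:**
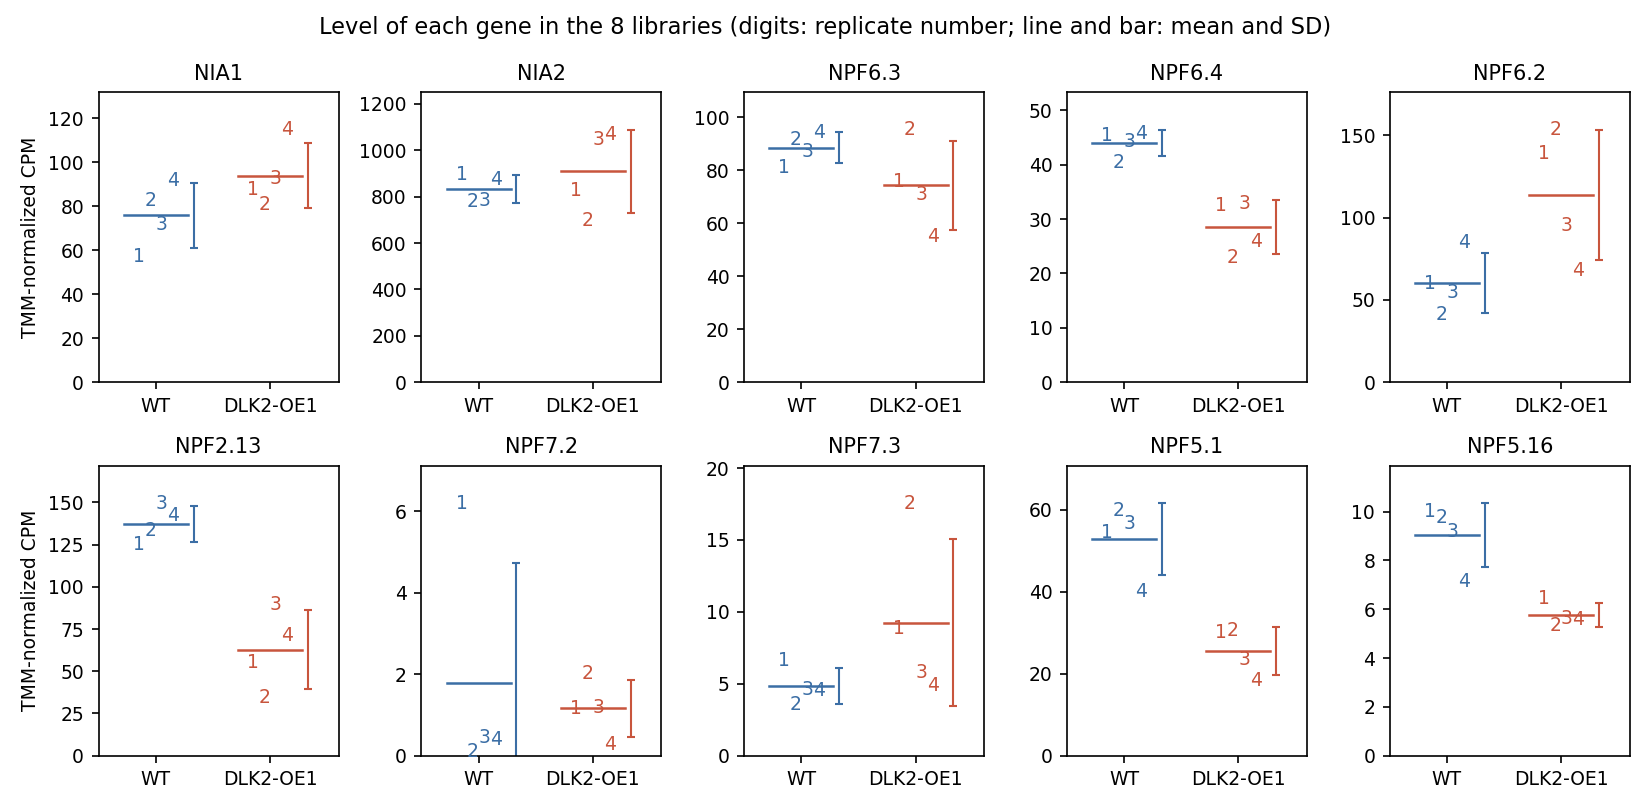
TMM-normalized CPM of each gene (vertical axes from 0) in the WT and DLK2-OE1 libraries, with digits for the replicate number, lines for means and bars for SD (n = 4 each; the WT bar of NPF7.2 is cut at 0). The 4 DLK2-OE1 libraries lie below all WT libraries at NPF6.4, NPF2.13, NPF5.1 and NPF5.16 and overlap with WT at the other 6 genes.

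Of the 10 members, 4 were lower in DLK2-OE1 at an edgeR adjusted p under 0.05, all of them transporters, where 1.58% of all tested genes were lower by that rule. The same 4 were those whose libraries did not overlap between genotypes, against 7.29% of tested genes not overlapping and lower. The other 6 were not called, where edgeR called 3.69% of tested genes in either direction, 384 of them higher. Of the 18155 tested genes 4779 had an unadjusted edgeR p under 0.05 in either direction. Of these 6 members NPF6.2 and NPF7.3 had one on the higher side. On that side 0 members did not overlap, against 7.87% of tested genes. DESeq2 called the same 4 lower and NPF6.2 higher, and limma-voom called NPF6.4 and NPF5.1. Over all tested genes DESeq2 called 1054 lower and 1567 higher, and limma-voom 157 and 108. The median log2 fold change was -0.42 over the members and 0.00 over all genes. Since the members were picked with this contrast known, nothing follows from these counts about the family. With WT replicate 1, 2 or 3 or DLK2-OE1 replicate 1 omitted, edgeR called 0 members, with 5 to 7 at an unadjusted p under 0.05. Over all tested genes 3307 to 3992 had such a p in these fits. Leaving out WT replicate 4 left 2 calls. Omission of a single DLK2-OE1 library left 2 calls for replicate 2, 3 for replicate 3 and 5 for replicate 4, and NPF5.1 alone was called when replicates 1 and 2 were omitted together.

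NPF2.13 (NRT1.7; AT1G69870, chromosome 1, 26315787 to 26320233), which loads nitrate into phloem for its export from older leaves, had the lowest log2 fold change with all libraries, and NPF5.1 the lowest without DLK2-OE1 replicates 1 and 2, without either of them alone and without WT replicate 4. It had 125, 133, 149 and 142 CPM in WT and 55.0, 34.7, 89.6 and 71.4 CPM in DLK2-OE1. Every DLK2-OE1 library was lower than every WT library, and replicate 2 was the lowest of all. The mean was 137 ± 10.7 CPM in WT and 62.7 ± 23.4 CPM in DLK2-OE1, 45.6% of WT, with a log2 fold change of -1.13 (SE 0.25). Without DLK2-OE1 replicates 1 and 2 it was -0.76 (SE 0.13). The summed level of 6 phloem markers was 412 to 544 CPM in WT and 365, 268, 454 and 417 CPM in DLK2-OE1 replicates 1 to 4, the same order of libraries as for NPF2.13, and 0 of the 6 passed the edgeR threshold (1 higher and 1 lower at an unadjusted p under 0.05, 1 higher by DESeq2, 0 by limma-voom). Of the 6 phloem markers 5 had a negative log2 fold change and 1 a positive one, with a median of -0.18. The part of these markers in the result was not tested. In leaf RNA, fewer cells of a type and less RNA per cell cannot be told apart.

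NPF5.1 (AT2G40460, chromosome 2, 16896907 to 16901670) and NPF5.16 (AT1G22550, chromosome 1, 7966500 to 7968692) are annotated as major facilitator superfamily proteins. NPF5.1 had 54.5, 59.8, 56.7 and 40.05 CPM in WT and 30.0, 30.4, 23.5 and 18.3 CPM in DLK2-OE1. Replicate 4 was the lowest library within each genotype, and the groups did not overlap. Its mean was 48.4% of WT, with a log2 fold change of -1.04 (SE 0.18), and -1.32 (SE 0.19) without DLK2-OE1 replicates 1 and 2. NPF5.16 had 10.02, 9.77, 9.19 and 7.14 CPM in WT and 6.46, 5.32, 5.63 and 5.59 CPM in DLK2-OE1. Its DLK2-OE1 libraries lay close together just under the lowest WT library, at 63.6% of the WT mean and a log2 fold change of -0.65 (SE 0.14).

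NPF5.16 stands between AT1G22540 and AT1G22570, further genes of the same superfamily, the 3 being consecutive in the annotation. AT1G22570, on the same strand, had 76.3 ± 13.8 CPM in WT and 39.8 ± 11.2 CPM in DLK2-OE1, without overlap, and missed the threshold at an edgeR adjusted p of 0.0504. AT1G22540, on the opposite strand, had 16.4 ± 1.29 CPM and 16.6 ± 1.03 CPM (log2 fold change 0.01, SE 0.09; adjusted p = 0.946, edgeR). These neighbours were singled out after their values were seen, and whether they differ from NPF5.16 in response was not tested.

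NPF6.3 (NRT1.1 or CHL1; AT1G12110, chromosome 1, 4105223 to 4109601) is the dual-affinity nitrate transporter that also acts as a nitrate sensor. It had 81.1, 91.5, 87.1 and 94.2 CPM in WT and 75.8, 95.2, 70.9 and 54.8 CPM in DLK2-OE1. DLK2-OE1 replicate 2 was the highest library of all, so the groups overlapped, with a log2 fold change of -0.25 (SE 0.15). It was -0.40 without DLK2-OE1 replicate 2, -0.14 without replicate 4 and -0.48 (SE 0.13) without replicates 1 and 2. Its relative NPF6.4 (NRT1.3; AT3G21670, chromosome 3, 7626757 to 7629205) had 45.4, 40.4, 44.3 and 45.8 CPM in WT and 32.5, 23.0, 32.8 and 26.0 CPM in DLK2-OE1. WT libraries were tightly grouped and DLK2-OE1 libraries all lower, at 64.9% of the WT mean and a log2 fold change of -0.62 (SE 0.12).

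NPF6.2 (NRT1.4; AT2G26690, chromosome 2, 11347147 to 11350993), which takes part in nitrate storage in petioles, had a higher mean in DLK2-OE1. It had 59.7, 41.3, 54.3 and 84.8 CPM in WT and 139, 153, 95.1 and 68.0 CPM in DLK2-OE1. DLK2-OE1 replicates 1, 2 and 3 exceeded every WT library, and replicate 4 fell within the WT range. The mean was 1.90 times that of WT, with a log2 fold change of 0.92 (SE 0.29), and 0.45 (SE 0.27) without DLK2-OE1 replicates 1 and 2. The DLK2-OE1 libraries stood in the same order, 2, 1, 3 and 4 from the highest, as their sums of xylem markers, whose part in the result was not tested. That order was not particular to NPF6.2. NPF6.3 and NPF5.1, with lower means in DLK2-OE1, shared it, as did NPF7.3 and the first principal component. An annotated long non-coding RNA, AT2G26692, overlaps the gene on the opposite strand over 477 bases. The first listed NPF6.2 transcript shared 0 windows of 50 bases with transcripts of other genes, and its other transcripts were not searched. AT2G26692 has no row of its own. The strand setting of the counting was not stated, so any reads that both genes share within the overlap cannot be told apart.

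The pair of xylem carriers was scarce, and each overlaps a neighbour on the opposite strand, by 16 bases for NPF7.3 and 44 for NPF7.2. NPF7.3 (NRT1.5; AT1G32450, chromosome 1, 11715147 to 11719988), known in roots for loading nitrate into xylem, had 6.60, 3.59, 4.62 and 4.54 CPM in WT and 8.81, 17.5, 5.79 and 4.85 CPM in DLK2-OE1. Its highest libraries were DLK2-OE1 replicates 2 and 1, which also had the highest sums of xylem markers given above, and DLK2-OE1 replicates 3 and 4 lay within the WT range. The log2 fold change was 0.94 (SE 0.39), and 0.15 (SE 0.25) without these 2 libraries. The part of the xylem markers in this result was not tested. These 2 libraries were also the highest within DLK2-OE1 at NPF6.3 and NPF5.1, whose means were lower than in WT.

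NPF7.2 (NRT1.8; AT4G21680, chromosome 4, 11517353 to 11519805), which takes nitrate back out of xylem sap, had 105, 2, 9 and 8 counts in WT and 23, 47, 22 and 5 counts in DLK2-OE1. One WT library, replicate 1, thus carried most of the WT signal. On the CPM scale it stood at 6.19, with the other WT libraries at 0.0982 to 0.447 CPM and DLK2-OE1 at 0.282 to 2.02 CPM. The log2 fold change was -0.58 (SE 1.06) with all libraries and 1.86 (SE 0.72) without WT replicate 1. With all libraries kept it was 0.79 by limma-voom, so its sign depended on the method as well as on that library.

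**Figure D3:**
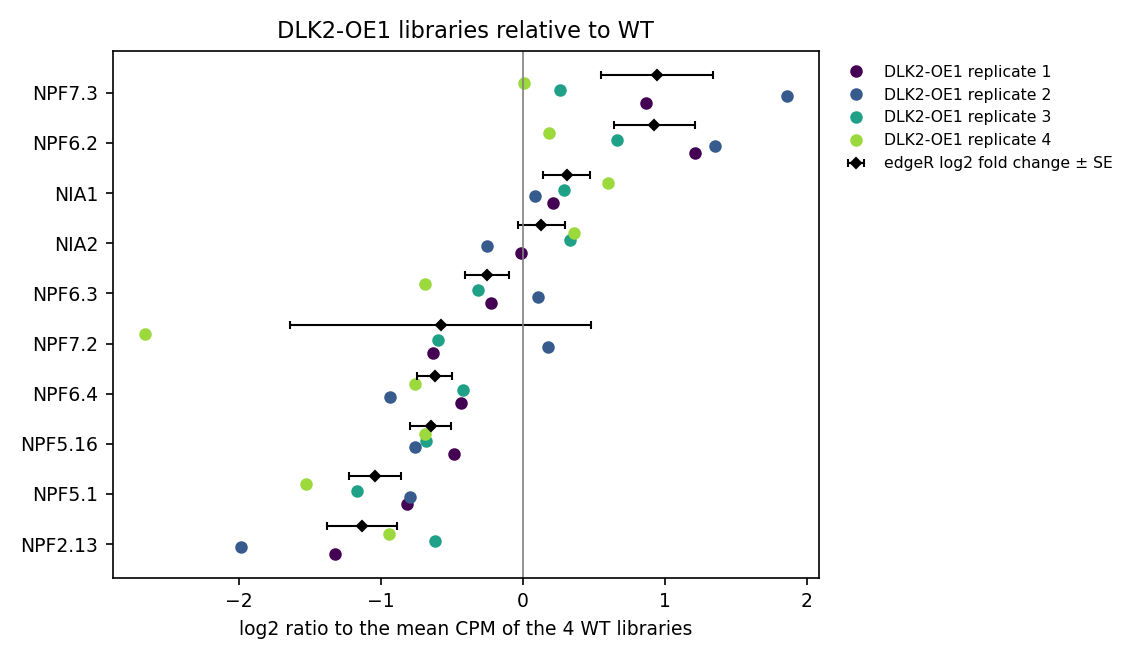
Log2 ratio of each DLK2-OE1 library to the mean CPM of the 4 WT libraries for each gene (coloured points), with the edgeR log2 fold change and its SE (diamonds and bars). NPF2.13, NPF5.1, NPF5.16 and NPF6.4 have 4 points below 0, NIA1, NPF6.2 and NPF7.3 have 4 above, and NPF7.2 has the widest bar, with an SE of 1.06.

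Spread inside a genotype differed between members. In WT the coefficient of variation was 5.56% for NPF6.4, 6.46% for NPF6.3, 7.29% for NIA2 and 7.77% for NPF2.13, but 30.4% for NPF6.2 and 165% for NPF7.2. In DLK2-OE1 these values were 17.1% for NPF6.4, 22.4% for NPF6.3, 19.7% for NIA2, 37.3% for NPF2.13, 34.5% for NPF6.2 and 61.2% for NPF7.2. From WT to DLK2-OE1 the value was lower for NIA1 (19.6% and 15.7%) and NPF5.16 (14.5% and 8.59%). It was higher for NPF5.1 (16.6% and 22.6%) and NPF7.3 (26.2% and 62.5%). Genotype means were then removed and log2 CPM deviations compared over the 8 libraries among 6657 genes with a symbol and a mean of at least 5 CPM. The genes most like NIA1 were SIK1, LUL3, PIN4, BG3 and PIRL1, with Pearson's r from 0.987 to 0.969. Those most like NIA2 were GPRI1, FIS1B, CHIP, BT4 and ATMRK1 (0.984 to 0.968). Those most like NPF6.3 were WPP2, MTR4, PCK1, PAP1 (AT3G16500) and PUM6 (0.980 to 0.975). With 8 libraries and this many genes such values describe a ranking and nothing more, and the libraries share depth and tissue makeup.

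Beyond the members, 5 lists of nitrogen genes held 124 loci, of which 93 were tested, with 4 higher, 5 lower and 84 not past the edgeR threshold. The 9 calls were 9.68% of those tested, beside 3.69% of all genes. The lists were written with earlier results of these data known, so nothing follows from these shares about nitrogen genes. DESeq2 called 17 higher and 10 lower, and limma-voom 0 and 3. Over all 18155 tested genes DESeq2 called 1567 and 1054, and limma-voom 108 and 157. An unadjusted edgeR p under 0.05 was found for 48 of the 93 list genes and for 4779 of all tested genes. The same limit holds for these counts. The median log2 fold change of the list genes was -0.02, against 0.00 over all genes. When WT replicate 1, 2 or 3 or DLK2-OE1 replicate 1 was omitted, edgeR called 0 of them, with 35 to 39 at an unadjusted p under 0.05. It called 8 when WT replicate 4 was omitted, and for DLK2-OE1 it called 2, 15 and 24 when replicate 2, 3 or 4 was. With DLK2-OE1 replicates 1 and 2 both omitted it called 0, with 26 at an unadjusted p under 0.05. Over all tested genes 2696 had such a p in that fit. In the fits with 1 library omitted and 0 calls, 3307 to 3992 did.

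Of 28 tested genes of the remaining NPF family 1 was higher, 1 lower and 26 not called by edgeR. DESeq2 called 5 higher and 2 lower, limma-voom 0 and 1, and 8 higher and 7 lower had an unadjusted edgeR p under 0.05. NPF2.10, a glucosinolate carrier known as GTR1, fell from 147 ± 24.7 to 83.3 ± 9.72 CPM (adjusted p = 0.0258, edgeR). AT2G37900 rose from 0.559 ± 0.336 to 3.68 ± 2.46 CPM (adjusted p = 0.0493, edgeR), with its highest values of 4.11 and 6.99 CPM in DLK2-OE1 replicates 1 and 2. NPF1.2, the most abundant of these genes per transcript length, had 166 ± 79.9 CPM in WT and 296 ± 55.1 CPM in DLK2-OE1 and did not pass (adjusted p = 0.119, edgeR).

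Among 8 tested genes for NRT2, NRT3, CLC and SLAC/SLAH anion transport 2 were higher and 0 lower (1 lower at an unadjusted p under 0.05, 1 by DESeq2 and 0 by limma-voom). CLC-B, a vacuolar anion transporter gene, rose from 2.71 ± 0.222 to 4.76 ± 0.718 CPM (adjusted p = 0.0438, edgeR). SLAH2, an anion channel gene, rose from 0.147 ± 0.113 to 1.64 ± 1.38 CPM (adjusted p = 0.0469, edgeR), and its highest libraries, at 1.85 and 3.52 CPM, were again DLK2-OE1 replicates 1 and 2, while the WT libraries held 1 to 5 counts each. CLC-A, which stores nitrate in leaf vacuoles, had 316 ± 19.7 CPM in WT and 296 ± 51.5 CPM in DLK2-OE1, and the S-type anion channel gene SLAH3 61.4 ± 28.8 and 42.7 ± 13.2 CPM. Neither passed (adjusted p = 0.703 and 0.354, edgeR).

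For nitrite reduction and cofactor supply edgeR called 0 of 13 genes, with 4 at an unadjusted p under 0.05, 2 called higher by DESeq2 and 0 by limma-voom. NIR1, the nitrite reductase gene, had 324 ± 41.3 CPM in WT and 262 ± 53.7 CPM in DLK2-OE1 (adjusted p = 0.28, edgeR). UPM1, which acts in the synthesis of its sirohaem cofactor, had 112 ± 13.0 and 107 ± 17.4 CPM (adjusted p = 0.779, edgeR).

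In the ammonium list 1 of 16 tested genes was higher and 1 lower by edgeR. DESeq2 called 4 higher and 3 lower, limma-voom 0 in either direction, and 6 higher and 4 lower had an unadjusted edgeR p under 0.05. GLN1;1, a cytosolic glutamine synthetase gene, fell from 216 ± 47.7 to 118 ± 14.5 CPM (adjusted p = 0.0382, edgeR), and GDH2, a glutamate dehydrogenase gene, rose from 99.1 ± 37.1 to 247 ± 52.6 CPM (adjusted p = 0.0415, edgeR). The abundant GLN1;2 did not overlap between genotypes at 425 ± 26.4 and 316 ± 26.5 CPM but missed the threshold (adjusted p = 0.0616, edgeR). The plastid glutamine synthetase gene GS2 had 2004 ± 171 CPM in WT and 1686 ± 424 CPM in DLK2-OE1, with a wide spread in the latter (adjusted p = 0.466, edgeR).

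In nitrate signalling 3 of 28 tested genes fell and 0 rose by edgeR, where 7 higher and 9 lower had an unadjusted p under 0.05. DESeq2 called 4 higher and 4 lower, and limma-voom 0 and 2. NLP2 and NLP8, transcription factor genes of the NIN-like family that answers nitrate, fell from 9.72 ± 0.563 to 6.68 ± 0.293 CPM and from 8.91 ± 0.896 to 5.89 ± 0.378 CPM (adjusted p = 0.0372 and 0.0415, edgeR). CBL1, a calcium sensor that partners the kinase CIPK23, which phosphorylates NPF6.3, fell from 15.2 ± 0.920 to 8.13 ± 2.07 CPM (adjusted p = 0.0372, edgeR). BT2 and BT1, nitrate-responsive BTB protein genes and the most abundant of this list, did not pass (adjusted p = 0.821 and 0.112, edgeR).

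**Figure D4:**
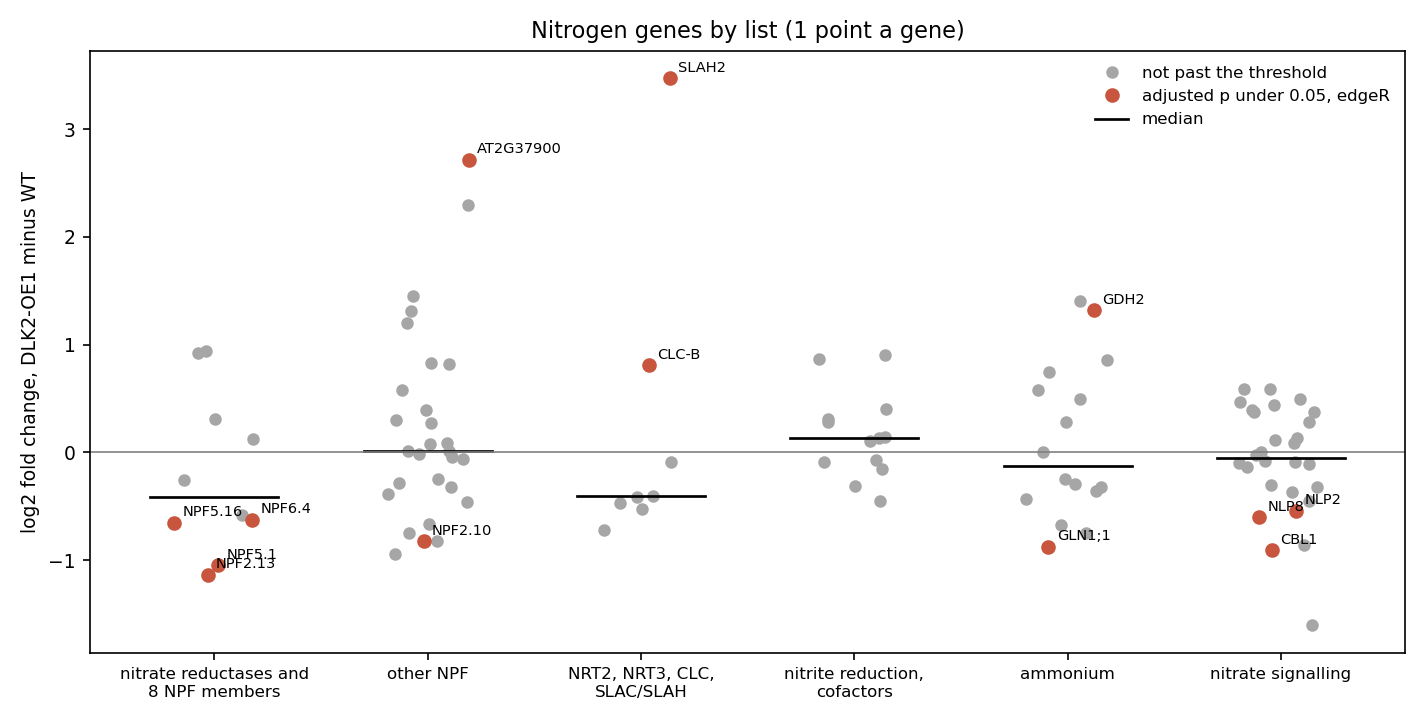
Log2 fold change (DLK2-OE1 minus WT, vertical axis) of each tested gene of the members and the 5 nitrogen lists, with genes past an edgeR adjusted p of 0.05 in colour and named, and bars for list medians. The median is -0.42 for the members, which were chosen with this contrast known, and -0.02 over the 5 lists together. The lists, too, were written with earlier results of these data known.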

How the data were processed

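Leaf mRNA was captured with oligo(dT) and sequenced on an Illumina NovaSeq, per the labels' protocols. Each gene has 1 deposited count (a whole number) and 1 deposited FPKM per library, per the file headers. Tools listed without roles in the submitters' processing notes are HISAT2, RSEM, edgeR, DESeq2, StringTie 1.3.1, Bowtie2 2.2.8 and fastp 0.18.0, with build TAIR10. Strand setting, and whether counts are rounded estimates, were not stated. Rows were matched by locus to RefSeq TAIR10.1 for 26719 of 27634, and 1 listed locus had no row.

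The fit used edgeR 4.0.16 under R 4.3.3 (filterByExpr, TMM, robust glmQLFit, glmQLFTest, Benjamini-Hochberg over 18155 genes, threshold 0.05). CPM is TMM-normalized, and SE is the log2 fold change over the square root of F. The procedure was tested on simulated counts, drawn independently for each gene and library. These did not include a separation like that of DLK2-OE1 replicates 1 and 2, so the simulation does not cover it. Alternatives used DESeq2 1.42.0, limma 3.58.1, other filters, scalings and pseudocounts, a replicate block and omitted libraries. Coding sequences were aligned with MAFFT 7.526. The members and lists were chosen with earlier results of these data known. Named genes are the members, list genes past the threshold, the 2 genes of each list with the highest FPKM, the 5 most like NIA1, NIA2 and NPF6.3, and DLK2. Outside that rule, AT1G22540 and AT1G22570 are named after their values were seen, and EXP7, EXPA18 and RHD6 as the markers at 0.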

Additional observations from a re-analysis of the deposited data

Results flagged for a closer look

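NPF7.2 in WT replicate 1 stood at 6.19 CPM, far above the other WT libraries at 0.0982 to 0.447 CPM, a gap of 0.943 of the group's range and past Dixon's 95% critical value. It was the 1 such case among 58 sets of 4 libraries examined, and chance gives about 1 in 20.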

How the results depend on the processing

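Members called numbered 4, and were 2 with limma-voom, 1 with limma-trend on log2(FPKM + 1) or log2(FPKM + 0.1), 0 with log2(FPKM + 1) and no filter (7 at an unadjusted p under 0.05), 1 with the replicate block, 1 without DLK2-OE1 replicates 1 and 2, and 0 to 5 when single libraries were left out. Nitrogen list genes called numbered 9, and in the same order were 3, 4, 5, 0 (36 at an unadjusted p under 0.05), 2, 0 and 0 to 24, and 27 with DESeq2. All genes called numbered 670, and in that order 265, 288, 355, 126 (5106 at an unadjusted p under 0.05), 245, 60 and 0 to 2191. With DESeq2 they numbered 2621. The 0 came with WT replicate 3 omitted (3599 at an unadjusted p under 0.05), and the cause of these shifts was not tested. DESeq2 size factors, no count filter and a minimum of 10 counts in 4 libraries left these counts within 1.5 times.

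The log2 fold change of DLK2 was 0.83 to 0.99 when single libraries were left out, with adjusted p values above the threshold at 0.067 and 0.0548 when WT replicate 1 or 3 was omitted and at 0.0574 for DLK2-OE1 replicate 1. NPF7.2 ran from -0.99 to 1.86 when single libraries were left out, and changed sign to 0.79 with limma-voom, 0.022 with log2(FPKM + 1) and no filter, 0.38 with the replicate block and 1.86 without WT replicate 1, while the other 9 members kept their direction under all 18 alternatives. On the FPKM scale the median of all genes shifted by 0.12 and 0.13 at pseudocounts of 1 and 0.1. Same-numbered libraries of the genotypes had correlations of deviations from -0.10 to 0.12, so the numbers were not taken as pairs. For NPF7.2 the depth leaves as few as 2 counts in a library.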
